A study of Mus musculus with 10 samples.

Results

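AML1/ETO is the leukaemia fusion protein that joins the DNA-binding part of the transcription factor AML1 (gene Runx1) to nearly all of the corepressor ETO (gene Runx1t1). Bone marrow cells that carried AML1/ETO with the W692A substitution were set against cells that carried the intact fusion, on the 7 arrays of these 2 groups out of 10 in the series. The arrays were chosen by their titles, 4 of W692A and 3 of AML1/ETO. The other 3 arrays, of cells with the vector and its green fluorescent protein alone (GFP), served as reference. Expression was compared for 18193 mouse genes, each read from 1 probe set.

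All 3 groups started from C57BL/6 mice of 5 to 6 weeks. Lineage-depleted, Sca1-selected marrow cells were cultured with IL-3 (10 ng/ml), IL-6 (20 ng/ml) and SCF (10 ng/ml) and transduced on 2 occasions, 24 hours apart, with a MigR1 retrovirus that also encodes GFP. At 48 hours after the second transduction, 25000 live, GFP-positive, lineage-negative, Sca1-positive and cKit-positive cells were sorted per sample, and 50 ng of their RNA was amplified in 2 rounds and labelled with biotin. The labels describe independent transductions and do not say whether they came from other mice, so the p-values measure the spread between these samples. The constructs were driven from a retrovirus in cells grown briefly in culture. The amount of fusion protein per cell was not among the measurements. In sorted bulk cells, fewer cells of a type and less RNA per cell cannot be told apart.

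AML1 recognises its sites in DNA through the Runt domain, which the fusion keeps. ETO adds several conserved stretches that recruit repressors, and the last of them, the MYND domain, is a zinc-binding fold through which ETO contacts corepressor proteins that bring histone deacetylases to a gene. The substituted tryptophan lies in that fold, and its change to alanine is used to disturb this contact while the rest of the fusion stays in place. The comparison asks which effects of AML1/ETO were seen again with the substituted protein and which were not.

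Within a group, arrays correlated at 0.982 to 0.992 over the brighter genes, and W692A arrays correlated with AML1/ETO arrays at 0.941 to 0.952. Values are log2 intensities, and a difference of 1 is a doubling. A value of 2.04, the brightest reading of bacterial control probe sets, is used as the background bound, and a fold against a group with any array below it is given as at least that size. The labelled spike-in controls averaged 7.99 ± 0.324 with AML1/ETO (SD, n = 3) and, with W692A, 8.39 ± 0.323 (n = 4), and the Gapdh 3′ minus 5′ difference, a sign of RNA length, was 4.38 ± 0.573 and 4.01 ± 0.168. With GFP (n = 3) this difference was 4.93 ± 0.0889 (4.83 to 4.99), above every W692A array (3.81 to 4.17). The 18S control signal was 7.95 ± 0.196 with GFP, 8.40 ± 0.236 with AML1/ETO and 8.76 ± 0.181 with W692A. The part of these control differences in the comparisons, those with GFP included, was not tested beyond the covariate fits. AML1/ETO replicate 3 stood apart for the Gapdh difference (5.04) and for some granule genes. Of the sorted surface markers, Kit signal lay below the bound on all 10 arrays and gives no level for cKit, and Sca1 signal is not given here. Cd34 and Flt3, progenitor genes that were not part of the sort, read above the bound on all 10. Cd3e, Cd4, Cd8a, Ms4a1 and Itgam, markers of mature lymphoid and myeloid cells, lay below the bound on all 10 arrays. Other markers of cells that the gate is meant to leave out read above it. Elane read 4.29 to 6.97 over the 10 arrays, and Epx and Ngp are given below. Mpo, Prtn3 and Cpa3, genes of granulocyte and mast cell precursors, were bright in all 3 groups.

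Of the 18193 genes, 3765 (20.7%) differed between W692A and AML1/ETO at a limma adjusted p under 0.05. With W692A 1748 genes were higher (9.61%) and 2017 lower (11.1%). These shares are the background against which the counts of each gene group are to be read. After subtraction of each array's median the split was 2220 higher and 1682 lower. At least a 1.5-fold difference was seen for 2317 of the genes that passed and at least a 2-fold difference for 753. For 3510 genes (19.3%) the test was passed and the 7 arrays separated without overlap. A gene that misses the threshold is not thereby shown to be alike, so the 95% confidence interval of each difference was also used: among the 8572 genes whose mean in either group exceeded the background bound, 3691 (43.1%) had an interval that lay wholly within 1.5-fold either way, called a narrow interval here. Counts of narrow intervals in a list are to be read against this share, among members above the bound.

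**Figure D1:**
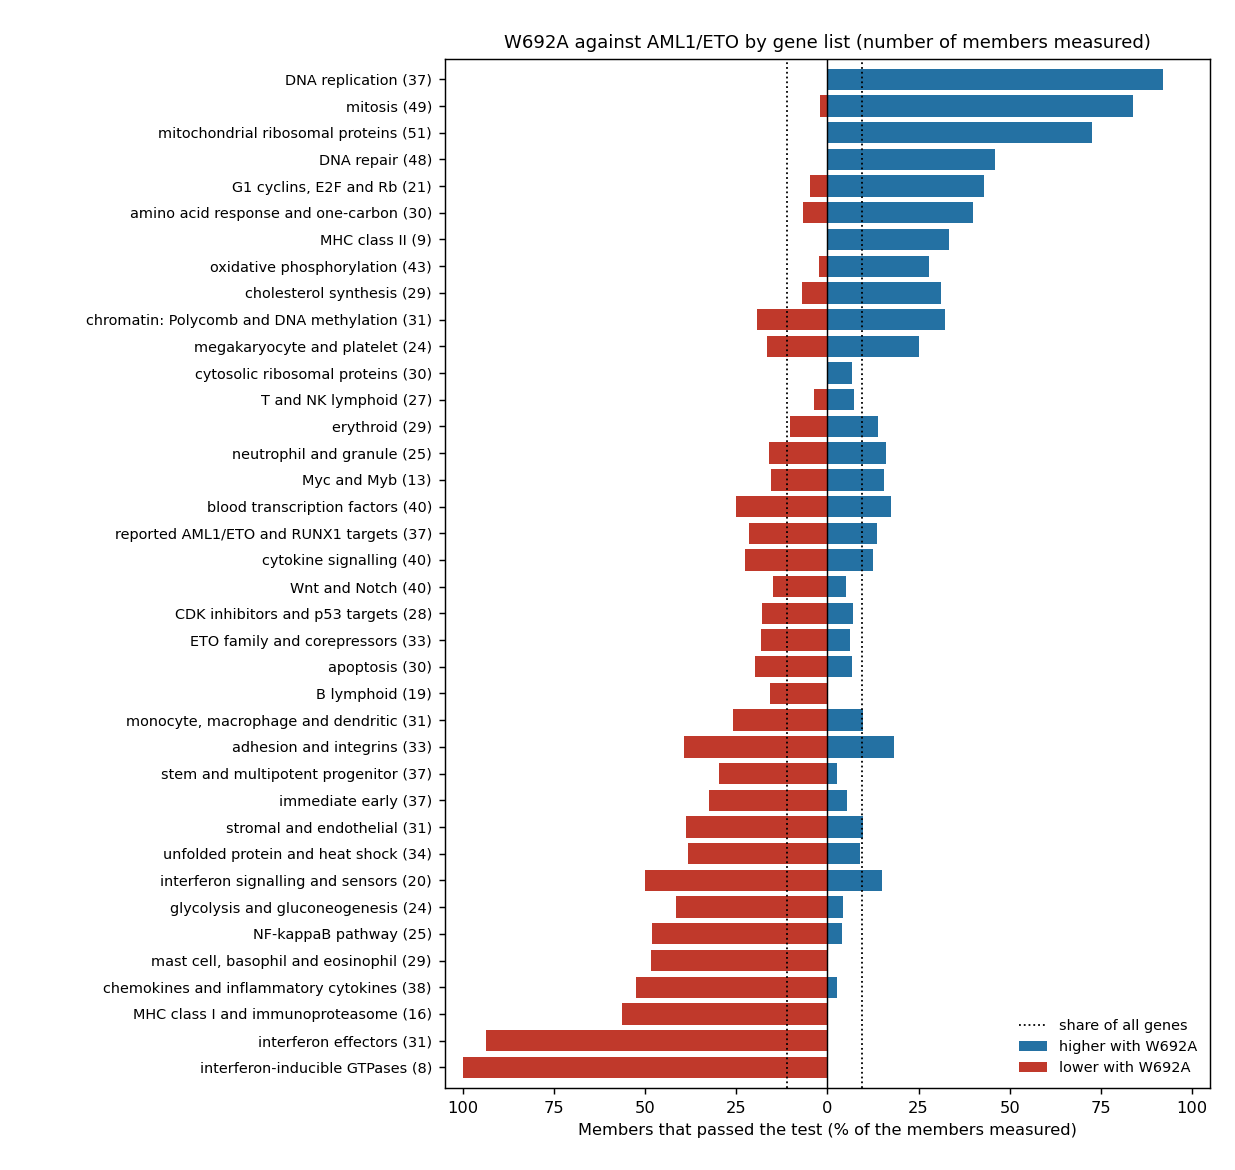
Share of the measured members of each gene list that passed the limma test and were higher (blue, right) or lower (red, left) with W692A than with AML1/ETO, in percent of the members measured (number in parentheses). Dotted lines mark the shares over all genes; interferon effectors and interferon-inducible GTPases reach farthest to the left and DNA replication, mitosis and mitochondrial ribosomal proteins farthest to the right.

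Antiviral interferon-response genes were lower with W692A than with AML1/ETO, and most stood near the vector level. Interferon-stimulated genes are switched on when cell-surface interferon receptors activate STAT and IRF factors, which bind the interferon-stimulated response element (ISRE) before their start sites. Of 31 measured interferon effectors 29 were lower with W692A, 0 were higher and 2 did not pass, with a median difference of -1.61 against 0.0278 over all genes. In 27 of the 31 the 7 arrays passed without overlap. Against GFP, 29 of the 31 were higher and 1 lower with AML1/ETO (all genes 12.9% and 15.8%), while 5 were higher and 3 lower with W692A (all genes 5.45% and 9.07%), and the median differences from GFP were 1.72 and 0.0169. Both of these comparisons share the GFP arrays.

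The ISRE core, searched as GAAANNGAA on both strands in RefSeq promoter windows of 300 bases (250 before to 50 after a start, build GRCm38.p6), stood in 10 of the 23 effectors with a window (43.5%), in all 6 interferon-inducible GTPases with one and in 8.70% of the 14452 genes with a window. A match describes these letters and is no measured binding. Stretches before the start of 4 genes that separated widely are shown as examples of genes that carry the element, with the match in capitals and 18 bases on each side, 5′ to 3′ on the strand of the gene. They lie at chr19:34640787-34640831 (plus strand, Ifit1), chr12:26456545-26456589 (minus strand, Rsad2), chr3:142620587-142620631 (plus strand, Gbp2) and chr11:58214895-58214939 (plus strand, Irgm2). In the first 3 the match is on the opposite strand and so reads as the reverse complement.
Ifit1: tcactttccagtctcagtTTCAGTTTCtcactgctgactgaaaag
Rsad2: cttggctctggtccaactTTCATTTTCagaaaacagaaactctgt
Gbp2: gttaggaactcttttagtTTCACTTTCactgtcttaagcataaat
Irgm2: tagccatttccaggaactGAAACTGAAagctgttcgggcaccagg

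Ifit1, an interferon-induced inhibitor of translation, read 8.47, 8.76 and 8.39 with AML1/ETO, 3.54, 3.80, 3.50 and 3.60 with W692A, and 3.39, 3.46 and 2.75 with GFP. The W692A arrays thus sat next to the vector arrays and far under all AML1/ETO arrays, 30.5-fold lower (difference -4.93 ± 0.163, SE, limma adjusted p = 2.75e-10). Ifi27l2a, an interferon-induced membrane protein, read 7.79, 7.82 and 7.59 with AML1/ETO against 3.28, 3.61, 3.92 and 3.04 with W692A, which is 19.3-fold lower. Rsad2 encodes viperin, an antiviral enzyme that makes a chain-terminating nucleotide. It read 9.15, 9.01 and 9.03 with AML1/ETO and 5.69, 5.36, 5.68 and 5.35 with W692A, 11.6-fold lower (limma adjusted p = 7.32e-08), with GFP at 5.07, 4.95 and 3.80. Oasl2, an oligoadenylate synthetase-like protein, went from 4.81, 4.71 and 5.07 with AML1/ETO to values between 1.31 and 1.94 with W692A, all below the bound, and was at least 7.08-fold lower. The 2 effectors that did not pass were Eif2ak2, the double-stranded RNA-activated kinase (-0.40, limma adjusted p = 0.256), and Ifi203, whose 7 arrays lay below the bound.

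Among 20 genes of interferon signalling and nucleic acid sensing, 10 were lower, 3 higher and 7 did not pass. Those lower included Usp18, which removes the ubiquitin-like modifier ISG15 and restrains the interferon receptor. Its arrays read 7.73, 7.60 and 7.62 with AML1/ETO against 4.63, 4.41, 4.43 and 4.52 with W692A, 8.91-fold lower (limma adjusted p = 2.82e-10), and GFP stood at 4.73, 4.73 and 4.51. The cytosolic RNA sensors followed the same order: Ddx58 (RIG-I) was 4.72-fold, Ifih1 (MDA5) 3.77-fold and Dhx58 (LGP2) at least 2.50-fold lower with W692A. Among the transcription factors of the pathway, Irf9, the DNA-binding part of the interferon-activated complex, read 5.51, 5.74 and 5.47 with AML1/ETO and 3.66, 4.29, 3.98 and 3.91 with W692A. Irf7, which amplifies the interferon response, was at least 2.33-fold lower. The receptors did not move together. Ifnar1, a type I interferon receptor chain, was 1.55-fold lower with W692A (not passed without AML1/ETO replicate 2 or W692A replicate 2), Ifnar2, the other chain, had a narrow interval (difference -0.15, 95% interval -0.42 to 0.11), and Ifngr2, a chain of the interferon gamma receptor, was 1.72-fold higher with W692A. The DNA sensor gene Cgas was 1.39-fold higher (not passed without AML1/ETO replicate 2), Irf8, a factor of monocyte and dendritic cell development, 1.54-fold higher, and Sting1, the adaptor that acts after Cgas, had a narrow interval (0.17, -0.15 to 0.48), as did Irf1 (0.23, 0.00 to 0.45).

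All 8 interferon-inducible GTPases measured, which attack the vacuoles of intracellular microbes, were lower with W692A, with a median difference of -1.98 (AML1/ETO minus GFP 1.93, W692A minus GFP 0.0909). Iigp1 read 6.73, 6.24 and 6.66 with AML1/ETO and 2.77, 3.09, 2.52 and 3.33 with W692A, 12.2-fold lower, while GFP arrays lay at 1.71, 1.62 and 1.61. Every W692A array of Iigp1 was thus above every GFP array (W692A minus GFP 1.28, limma adjusted p = 0.000138). Gbp2 was 4.37-fold, Irgm2 4.50-fold and Irgm1 4.29-fold lower than with AML1/ETO, and their W692A arrays overlapped those of GFP.

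Antigen presentation by MHC class I was lower in part. Of 16 measured class I and immunoproteasome genes 9 were lower with W692A, 0 higher and 7 did not pass, with a median difference of -0.603. B2m, the light chain of class I, read 10.26, 10.12 and 10.00 with AML1/ETO and 9.40, 9.40, 8.98 and 9.34 with W692A, a difference of -0.85 (limma adjusted p = 0.000186), and GFP was at 9.29, 9.30 and 9.16. H2-D1, a class I heavy chain, was 1.82-fold lower and Nlrc5, the class I transactivator, 2.05-fold lower. Nlrc5 did not differ from GFP by the test with AML1/ETO (0.29, limma adjusted p = 0.271). With W692A it lay below GFP (-0.74, limma adjusted p = 0.00658). H2-D1 belongs to a family of near-identical genes, and only 1 of its 8 other probe sets passed in the same direction. In MHC class II, 3 of 9 measured genes were higher with W692A, 0 lower and 6 did not pass. Only 1 passed without AML1/ETO replicate 2 or 3 or without W692A replicate 1, 3 or 4. The 3 included H2-DMb2, which helps to load peptides onto class II and was 1.83-fold higher, while H2-DMa had a narrow interval (0.03, -0.29 to 0.35).

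**Figure D2:**
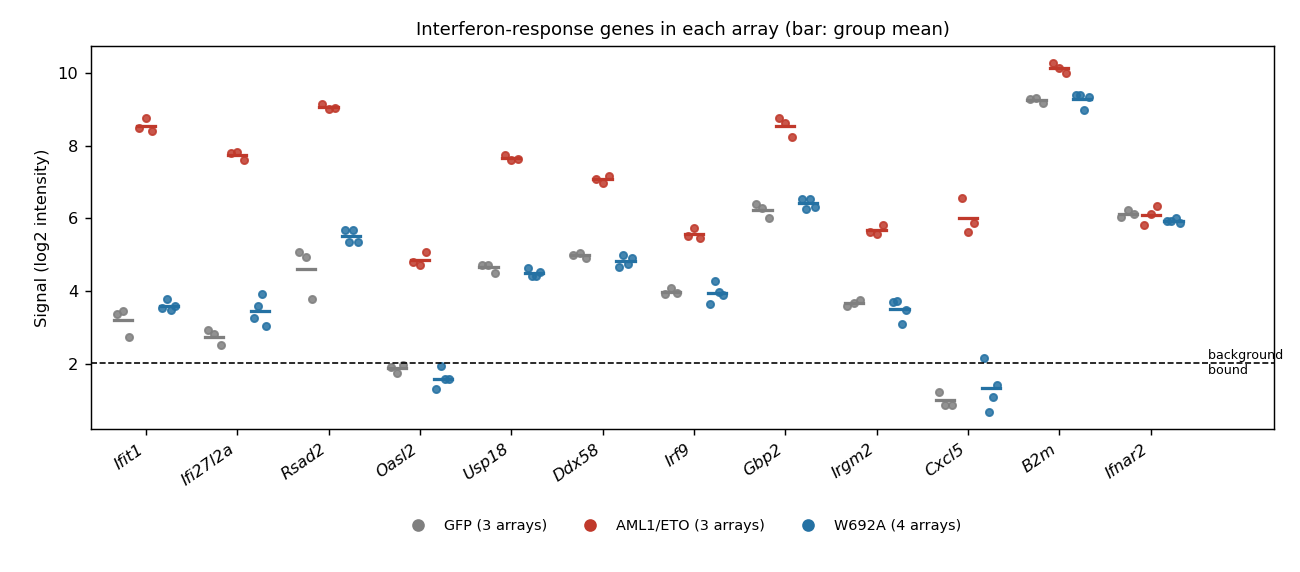
Log2 signal of 12 interferon-response and chemokine genes on each array, with GFP in grey (3 arrays), AML1/ETO in red (3) and W692A in blue (4); bars are group means and the dashed line is the background bound of 2.04. For all but Ifnar2 the red points stand above the blue ones without overlap, and most blue points lie near the grey ones.

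Inflammatory mediators were also lower with W692A. Of 38 measured chemokines and inflammatory cytokines 20 were lower, 1 higher and 17 did not pass, and the median difference was -0.772. Cxcl5, a chemokine that draws neutrophils, read 6.57, 5.62 and 5.88 with AML1/ETO and 2.17, 0.70, 1.10 and 1.42 with W692A, at least 15.5-fold lower (limma adjusted p = 3.29e-08). Only W692A replicate 1 rose above the bound, and all GFP arrays were below it. Cxcl2, another neutrophil chemokine, took a middle level: 9.72, 9.28 and 9.23 with AML1/ETO, 7.21, 6.29, 6.90 and 6.82 with W692A, and 3.28, 3.56 and 2.69 with GFP. Il1a, the interleukin 1 alpha gene, was at least 2.84-fold and Cxcl10, an interferon-induced T cell chemokine, at least 4.96-fold lower. Il6 was 4.29-fold lower, with AML1/ETO replicate 3 at 6.31 where the other AML1/ETO arrays gave 4.44 and 4.79, and here W692A (2.50 to 3.58) lay below GFP too (4.35 to 4.61). Ccl9, a chemokine of myeloid precursors, was the 1 member that was higher (1.75-fold, limma adjusted p = 0.0117), a call lost without AML1/ETO replicate 1 or 2. Ccl24 and the cytokine Osm kept narrow intervals, at 0.04 (-0.29 to 0.37) and 0.03 (-0.21 to 0.28).

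In the NF-kappaB pathway, which drives many of these mediators, 12 of 25 measured genes were lower, 1 higher and 12 did not pass. Without AML1/ETO replicate 1, 6 were lower. Against GFP, 6 were higher and 6 lower with AML1/ETO (median -0.00179), and 1 was higher and 9 lower with W692A (-0.355). As a list, these genes thus did not stand above GFP with AML1/ETO. Icam1, a leukocyte adhesion ligand, was 2.58-fold lower, Tlr2, a receptor for bacterial lipoproteins, 2.98-fold, Vcam1 at least 1.59-fold and Tnfaip3 (A20), a feedback inhibitor of the pathway, 2.13-fold. Neither of the 2 other probe sets of Vcam1 passed. Tnfaip3 did not differ from GFP by the test with AML1/ETO (0.22, limma adjusted p = 0.262). With W692A it lay below GFP (-0.87, limma adjusted p = 0.00016). Bcl3, an atypical inhibitor-like partner of NF-kappaB, was the 1 that was higher. It read 2.62, 2.91 and 2.82 with AML1/ETO, 4.33, 4.47, 4.64 and 4.60 with W692A, and 4.42, 4.34 and 4.62 with GFP, so that W692A stood at the vector level (3.31-fold above AML1/ETO, limma adjusted p = 1.68e-07). Immediate early genes, the first transcripts that growth and stress signals induce, split into 12 lower, 2 higher and 23 that did not pass. Fosl2, a partner of Jun, was 5.31-fold lower and Klf6 4.32-fold lower, Spry2, an inhibitor of receptor kinase signalling, at least 2.60-fold lower, and Klf10 2.04-fold higher. Ier2 and Zfp36 had narrow intervals (0.16, -0.23 to 0.55 and 0.08, -0.28 to 0.43).

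Cell division genes were higher with W692A than with AML1/ETO. The minichromosome maintenance helicase, the replication factors and the enzymes of nucleotide supply work in S phase, and cyclin-dependent kinase 1 with the spindle and kinetochore proteins carries cells through mitosis. Of 37 measured DNA replication genes 34 were higher with W692A, 0 lower and 3 did not pass, with a median difference of 0.802. Among 49 mitosis genes 41 were higher, 1 lower and 7 did not pass, with a median of 0.809. Against GFP, AML1/ETO had 36 of 37 replication genes lower (median -1.06) and 46 of 49 mitosis genes lower (-0.917), and W692A had 8 of 37 (-0.204) and 9 of 49 (-0.114) lower.

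Tk1, the thymidine kinase of S phase, read 2.86, 3.06 and 3.46 with AML1/ETO, 5.01, 4.49, 4.63 and 4.77 with W692A, and 4.72, 4.54 and 4.50 with GFP. W692A was 3.03-fold above AML1/ETO (difference 1.60 ± 0.153, SE, limma adjusted p = 3.52e-06) and overlapped the vector arrays. Mcm5, a helicase subunit, read 7.84, 8.27 and 8.26 with AML1/ETO and 9.37, 9.52, 9.55 and 9.35 with W692A, 2.50-fold higher (limma adjusted p = 7.67e-06). Rfc4, a subunit of the clamp loader, was 2.35-fold higher and Dut, which removes dUTP from the nucleotide pool, 2.47-fold. An exception was Chaf1b, a subunit of a histone chaperone that follows the replication fork, with a narrow interval (0.12, -0.21 to 0.45). It was lower than GFP with both constructs (-0.83 and -0.71).

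In mitosis, Cdc25c, the phosphatase that activates cyclin-dependent kinase 1, read 4.96, 5.44 and 4.94 with AML1/ETO and 6.54, 6.99, 6.74 and 6.47 with W692A, 2.98-fold higher (limma adjusted p = 3.70e-06). All 4 W692A arrays also lay above the GFP arrays (6.12 to 6.35), a difference of 0.45 that did not pass (limma adjusted p = 0.0618). Kif23, a motor of the spindle midzone, read 4.79, 4.74 and 4.62 with AML1/ETO, 6.22, 5.98, 6.17 and 5.89 with W692A, and 6.16, 6.07 and 6.03 with GFP, 2.55-fold above AML1/ETO. Its 2 other probe sets did not pass. Espl1 (separase), which cuts the cohesin rings, was 2.35-fold higher, and Tacc3, a spindle protein, 2.19-fold. Neither of the 2 other probe sets of Tacc3 passed. Pttg1 (securin), which holds separase inactive, was the 1 member that was lower: 10.22, 10.12 and 9.88 with AML1/ETO and 9.81, 9.66, 9.58 and 9.63 with W692A (1.32-fold, limma adjusted p = 0.0212), with GFP lowest at 9.23 to 9.39. This call was lost under 8 of the alternatives tried, among them those without AML1/ETO replicate 1 or 2 or W692A replicate 3 or 4. Plk4, the kinase of centriole duplication, and Smc4, a condensin subunit, had narrow intervals on the probe set used (0.17, -0.21 to 0.54 and 0.28, 0.01 to 0.55) and were below GFP with both constructs. Both of the 2 other probe sets of Plk4 and 1 of the 2 of Smc4 passed as higher with W692A, and both genes passed with probe sets averaged, so the probe sets disagree.

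The cell cycle homology region (CHR, searched as TTTGAA on both strands) is a promoter element of late cell cycle genes. It stood in the window of 29 of 42 mitosis genes (69.0%), 4 of 30 DNA replication genes (13.3%) and 15.7% of all genes with a window. The CCAAT box, searched as CCAAT, stood in 30 of the 42 mitosis genes (71.4%), 18 of the 30 replication genes (60.0%) and 6070 of the 14452 genes with a window. It was not particular to division genes. The share was 79.3% in the unfolded protein and heat shock list and 72.7% in CDK inhibitors and p53 targets, but 43.5% in interferon effectors. The motif TGTGGT, which RUNX proteins bind, stood in 4 of 42 mitosis genes (9.52%), 4 of 23 interferon effectors (17.4%) and 16.1% of all genes. Its share was larger in mast cell, basophil and eosinophil genes (11 of 24, 45.8%), T and NK genes (7 of 20) and B lymphoid genes (5 of 15, 33.3%). Known targets of the fusion or of RUNX1 had 3 of 27 (11.1%), and the unfolded protein and heat shock list 0 of 29. Whether these shares differ from that of all genes was not tested. TGTGGT stood in 15.2% of all genes lower and 14.6% of all genes higher with W692A. Stretches before the start of 4 mitosis genes show 1 CHR match each in capitals with 18 bases on each side, on the strand of the gene. They lie at chr15:102296248-102296289 (plus strand, Espl1), chr7:80294428-80294469 (plus strand, Prc1), chr7:135716454-135716495 (minus strand, Mki67) and chr2:164769882-164769923 (plus strand, Ube2c, match on the opposite strand). The Mki67 stretch also opens with another TTTGAA, left in lower case. All 4 genes were higher with W692A, by 1.23, 1.06, 0.70 and 0.96 on the log2 scale.
Espl1: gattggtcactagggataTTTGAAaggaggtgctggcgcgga
Prc1: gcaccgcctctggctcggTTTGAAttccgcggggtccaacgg
Mki67: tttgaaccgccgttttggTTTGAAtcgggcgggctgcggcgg
Ube2c: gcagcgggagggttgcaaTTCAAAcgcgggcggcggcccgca

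DNA repair genes were higher for 22 of 48 measured members with W692A, with 0 lower and 26 that did not pass, a median of 0.41. Fancd2, a switch protein of crosslink repair, read 2.39, 2.54 and 2.08 with AML1/ETO and 3.51, 3.51, 3.50 and 3.60 with W692A, 2.29-fold higher. Msh6, of mismatch repair, was 2.70-fold higher, Ung, the uracil glycosylase, 2.17-fold, and Rad54l, of homologous recombination, 2.15-fold. Part of the repair list was alike under both constructs. Palb2, a partner of the BRCA proteins, and Xpc, a damage sensor, had narrow intervals (0.22, -0.07 to 0.51 and 0.18, -0.11 to 0.47) and lay below GFP with both, Palb2 by -1.06 with AML1/ETO and -0.84 with W692A.

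The regulators of entry into S phase were divided. Of 21 genes of the G1 cyclins, E2F and Rb families 9 were higher with W692A, 1 lower and 11 did not pass. The E2F activator E2f2 was at least 1.43-fold and E2f8 1.74-fold higher, as were the phosphatase Cdc25a (1.69-fold) and cyclin E1, Ccne1 (1.66-fold). Ccne1 read 5.92, 6.16 and 5.89 with AML1/ETO and 6.59 to 6.83 with W692A, above all GFP arrays (6.02 to 6.22). Rb1, the retinoblastoma brake on E2F, was 1.48-fold lower with W692A, a call lost without AML1/ETO replicate 1. The E2F family members E2f6 and E2f3 had narrow intervals (0.26, 0.04 to 0.48 and -0.23, -0.48 to 0.01), though the arrays of each separated without overlap. E2f6 passed as higher with further quantile normalization, array medians subtracted or array weights. Among 28 CDK inhibitors and p53 targets 5 were lower and 2 higher: Perp was 3.85-fold, Sesn1 1.86-fold and Btg1, an antiproliferative factor, 1.81-fold lower, and Cdkn2c, an inhibitor of G1 cyclin-dependent kinases, 1.58-fold higher. In the Myc and Myb list 2 of 13 were higher and 2 lower. Mxi1, a Max partner that opposes Myc, read 5.42, 5.06 and 5.13 with AML1/ETO, 3.77, 3.58, 3.73 and 3.69 with W692A, and 3.91, 3.87 and 3.73 with GFP (2.85-fold lower than with AML1/ETO, limma adjusted p = 3.55e-07). Mxd4, another antagonist, was 1.93-fold lower, Myc itself was 0.36 higher (limma adjusted p = 0.116) and Mycn had a narrow interval (0.18, -0.08 to 0.44), though 1 of its 2 other probe sets passed as higher, as did the mean of its probe sets.

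**Figure D3:**
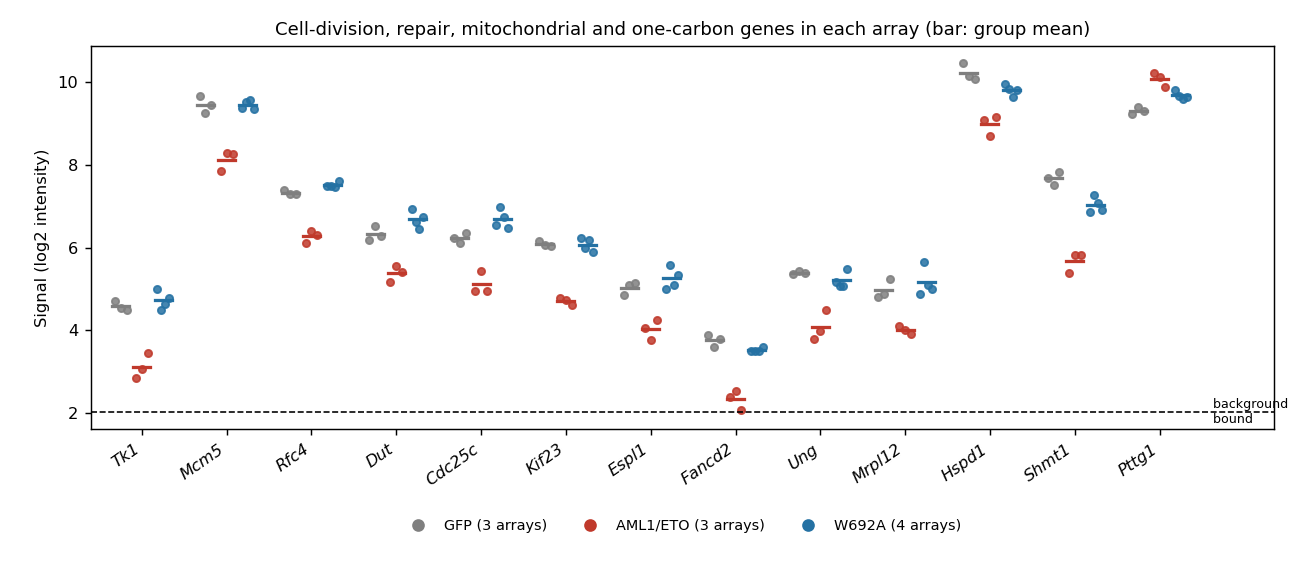
Log2 signal of 13 genes of replication, mitosis, repair, mitochondria and one-carbon metabolism on each array, with GFP in grey (3 arrays), AML1/ETO in red (3) and W692A in blue (4); bars are group means. Apart from Pttg1, the blue points lie above the red ones without overlap.

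Genes of the mitochondrial ribosome, which translates the few proteins encoded in mitochondria, were higher with W692A for 37 of 51 measured members, with 0 lower and 14 that did not pass (median 0.531). Against GFP, 33 of 51 were lower with AML1/ETO and 1 with W692A. Mrpl12 read 4.10, 4.00 and 3.92 with AML1/ETO and 4.89, 5.65, 5.10 and 5.00 with W692A, 2.22-fold higher, and Mrpl42 was 2.62-fold and Mrps22 1.98-fold higher. In the respiratory chain and ATP synthase, of 43 oxidative phosphorylation genes 12 were higher, 1 was lower and 26 had narrow intervals. Without AML1/ETO replicate 1, 7 were higher. Atp5g1, of the ATP synthase ring, was 2.12-fold and Ndufa5, of complex I, 2.00-fold higher. Of 30 cytosolic ribosomal protein genes 29 lay above the bound and 24 had narrow intervals. The 2 that passed were Rpl14 (0.59 higher on the log2 scale) and Rps6 (1.29-fold higher, not passed without AML1/ETO replicate 1 or 2).

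Biosynthetic enzymes were partly higher with W692A. In one-carbon and amino acid metabolism 12 of 30 genes were higher and 2 lower. Shmt1, a serine hydroxymethyltransferase that feeds the folate cycle, read 5.38, 5.81 and 5.83 with AML1/ETO, 6.85, 7.28, 7.08 and 6.91 with W692A, and 7.68, 7.50 and 7.82 with GFP, and W692A thus stood between the others (2.56-fold above AML1/ETO). Shmt2 was 2.12-fold, Mthfd1 2.05-fold and Phgdh, the first enzyme of serine synthesis, 1.76-fold higher. The 2 that were lower, Ddit3 (1.88-fold) and Trib3 (1.73-fold), encode stress response proteins and no enzymes of synthesis. In cholesterol synthesis 9 of 29 genes were higher (5 without AML1/ETO replicate 2) and 2 lower, with Dhcr7 1.71-fold and Sqle 1.58-fold higher (Sqle not passed without AML1/ETO replicate 2) and Abca1, a cholesterol exporter, at least 2.47-fold lower. Neither of the 2 other probe sets of Abca1 passed. In glycolysis and gluconeogenesis 10 of 24 were lower (6 without AML1/ETO replicate 3) and 1 was higher, and 11 of the 23 above the bound had narrow intervals. The glucose transporters Slc2a1 and Slc2a3 were 1.83-fold and 1.92-fold lower, and Slc16a1, which carries lactate, 1.99-fold higher.

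Chaperones went both ways. Of 34 genes of the unfolded protein and heat shock list 13 were lower, 3 higher and 18 did not pass. Hspa1b, an inducible cytosolic HSP70, read 5.79, 5.83 and 5.40 with AML1/ETO and 2.27, 2.38, 1.91 and 2.40 with W692A, at least 10.5-fold lower, beside GFP at 1.94 to 2.07. Dnajb9 and Ern1, of the endoplasmic reticulum stress response, were 3.73-fold and 2.91-fold lower. The 3 that were higher, Hspd1 (1.77-fold), Hspe1 (1.47-fold) and Hspa9 (1.32-fold), all encode chaperones of the mitochondrial matrix. The call of Hspa9 was lost without AML1/ETO replicate 2 or 3 or W692A replicate 1. Hsp90b1, of the endoplasmic reticulum, had a narrow interval (0.03, -0.34 to 0.39).

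Many genes kept the AML1/ETO level under W692A. Among the narrow intervals, the genes farthest above GFP with both constructs were Hmga2, Il2ra, Prdx4, Cd48, Plxnb2, Tjp1, Tulp3 and Sh3d19. Hmga2, which bends DNA and is active in fetal stem cells, read 9.97, 9.45 and 9.52 with AML1/ETO and 9.52, 9.36, 9.30 and 9.40 with W692A, against 5.75, 5.44 and 5.54 with GFP. The arrays of both constructs overlapped (difference -0.25, 95% interval -0.54 to 0.04) and stood far above the vector. Il2ra, the interleukin 2 receptor alpha chain, read 3.73, 3.85 and 3.94 with AML1/ETO and 3.80, 3.76, 4.17 and 3.83 with W692A, and all GFP arrays were below the bound. Its 1 other probe set passed in the opposite direction. Cd48, an adhesion ligand of multipotent progenitors, differed by -0.15 (-0.46 to 0.16), and Prdx4, a peroxiredoxin, by 0.14 (-0.12 to 0.41).

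The genes with a narrow interval that lay farthest below GFP were Prg3, Il1r1, Grtp1, Metrnl, Ighm, Bcl2, Serpinc1 and Smim5. For Serpinc1, 1 of 3 AML1/ETO arrays and 0 of 4 W692A arrays exceeded the bound, so its interval does not show equal levels, and for Tulp3 2 of 4 W692A arrays did. Smim5 was slightly higher with W692A (0.27, 0.03 to 0.50), at 3.09 to 3.26 against 2.85, 2.85 and 2.99 with AML1/ETO. It passed with further quantile normalization or array medians subtracted. Prg3, an eosinophil granule protein, read 3.95, 4.16 and 4.90 with AML1/ETO, 4.37, 4.66, 4.13 and 4.25 with W692A and 7.33, 6.91 and 7.76 with GFP. Il1r1, the interleukin 1 receptor, read 4.18, 3.91 and 3.73 with AML1/ETO, 3.87, 3.84, 3.55 and 3.92 with W692A and 6.92, 6.47 and 6.68 with GFP. For both genes the construct arrays overlapped each other and none came near the vector. Bcl2, the apoptosis inhibitor, read 3.50, 3.21 and 3.69 with AML1/ETO and 3.48, 3.32, 3.26 and 3.47 with W692A, against 5.47, 5.62 and 5.23 with GFP (difference -0.08, -0.37 to 0.21). Ighm, the immunoglobulin mu chain, differed by 0.04 (-0.28 to 0.36). The eosinophil genes Epx and Prg2 were likewise lower than GFP with both constructs, with Epx at 3.54 to 5.06 against 7.52 to 8.18, although their intervals between the constructs were wider than 1.5-fold.

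**Figure D4:**
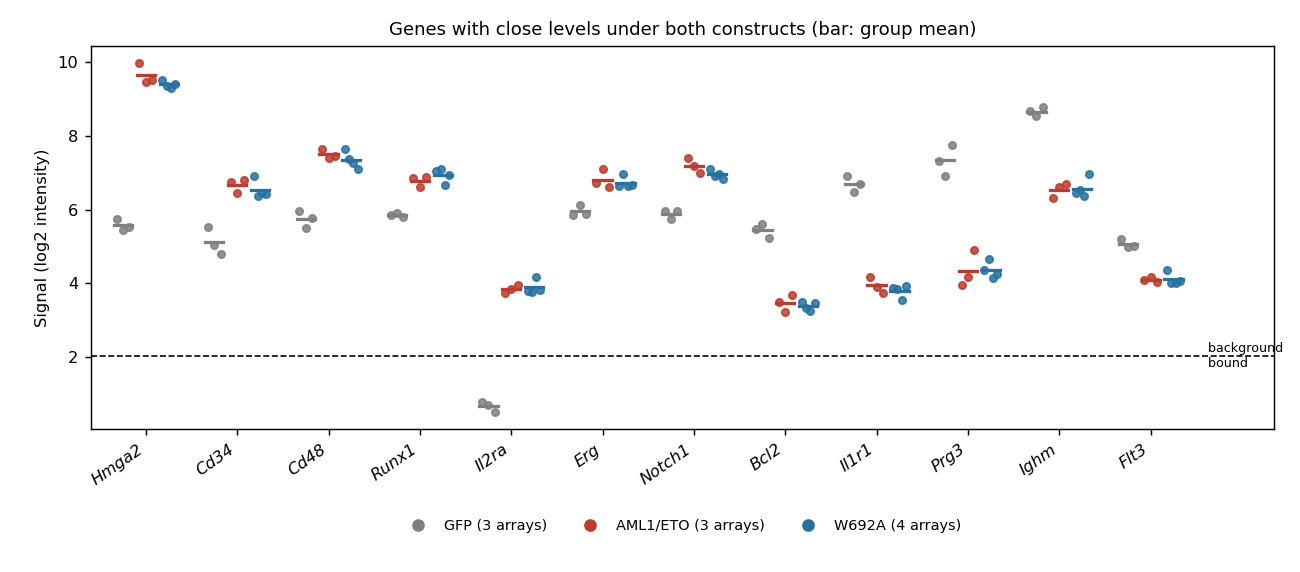
Log2 signal of 12 genes with a narrow interval between the constructs on each array, with GFP in grey (3 arrays), AML1/ETO in red (3) and W692A in blue (4); bars are group means. Red and blue points overlap, above the grey ones for Hmga2, Cd34, Cd48, Runx1, Il2ra, Erg and Notch1 and below them for Bcl2, Il1r1, Prg3, Ighm and Flt3.

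Stem and multipotent progenitor genes showed both patterns. Of 37 measured, 11 were lower with W692A, 1 was higher and 25 did not pass. Narrow intervals were found for 14 of the 31 with a mean above the bound, near the share over all such genes (43.1%). Against GFP, 17 were higher and 5 lower with AML1/ETO and 14 were higher and 7 lower with W692A. Cd34, the sialomucin of progenitor cells, was at 6.74, 6.46 and 6.80 with AML1/ETO, 6.90, 6.38, 6.45 and 6.43 with W692A, and 5.54, 5.05 and 4.79 with GFP (difference between the constructs -0.13, -0.50 to 0.25). Erg, an ETS factor of stem cells, differed by -0.08 (-0.38 to 0.22), Flt3, the cytokine receptor, by 0.01 (-0.25 to 0.26) and Hoxa9, a homeobox factor of self-renewal, by -0.25 (-0.54 to 0.04).

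Other stem cell genes were raised by both constructs and less by W692A. Procr, the endothelial protein C receptor of long-term stem cells, read 7.86, 7.42 and 7.82 with AML1/ETO, 5.54, 4.94, 5.20 and 5.10 with W692A, and 3.52, 3.06 and 3.15 with GFP. The 3 groups did not overlap, and W692A was 5.68-fold under AML1/ETO (limma adjusted p = 7.07e-08) and above GFP (1.95, limma adjusted p = 1.06e-06). Hlf, a transcription factor of quiescent stem cells, read 8.41, 8.42 and 8.42 with AML1/ETO, 7.52, 7.27, 7.50 and 7.42 with W692A, and 3.71, 4.36 and 4.32 with GFP, 1.99-fold under AML1/ETO. Eng (endoglin) was 2.56-fold and Gata2 1.53-fold lower with W692A than with AML1/ETO, both above GFP. Mllt3, a regulator of stem cell maintenance that neither construct moved from GFP by the test, was 2.25-fold lower than with AML1/ETO, with W692A replicate 2 at 2.54 against 3.74 to 4.07 on the other W692A arrays. Lyl1, a basic helix-loop-helix factor, was the 1 member that was higher (1.58-fold), a call lost without AML1/ETO replicate 1.

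Further genes raised by both constructs took such a middle level. Hbb-y, an embryonic globin, read 8.69, 8.56 and 8.26 with AML1/ETO, 6.44, 5.40, 6.20 and 5.82 with W692A, and below the bound on every GFP array. Fbp1, the gluconeogenic fructose bisphosphatase, read 7.84, 8.11 and 7.62 against 6.20, 6.74, 6.50 and 6.77, with GFP again below the bound. W692A was 5.81-fold under AML1/ETO for Hbb-y and 2.47-fold under it for Fbp1. Epas1, a hypoxia-inducible factor of endothelium, was 8.14-fold lower with W692A, Rhoj, a small GTPase of endothelium, 6.00-fold, and Vegfc, a lymphatic growth factor, 4.39-fold. For these 3 genes all W692A arrays stood above all GFP arrays, by 2.76, 3.54 and 3.83 on the log2 scale. Sox17, an endothelial and fetal stem cell factor, did not take a middle level: it read 5.21, 5.17 and 6.28 with AML1/ETO and 0.49 to 0.83 with W692A, below the bound as with GFP (at least 11.4-fold). Its 1 other probe set did not pass.

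The largest falls included genes of quite different functions. Fst encodes follistatin, which binds and blocks activin. It read 7.29, 7.04 and 6.78 with AML1/ETO and 1.09, 1.60, 2.18 and 1.37 with W692A, at least 31.1-fold lower (difference -5.47 ± 0.21, SE, limma adjusted p = 7.27e-10), with 1 of 4 W692A arrays above the bound. Nts, the neurotensin precursor, read 6.35, 6.49 and 6.82 with AML1/ETO and lay below the bound on all W692A arrays (at least 22.8-fold). Oxtr, the oxytocin receptor, was at least 8.16-fold, Fermt2, a kindlin of integrin activation, at least 4.94-fold and Slfn4, an interferon-inducible Schlafen gene, at least 8.51-fold lower. The 1 other probe set of Oxtr did not pass. Car8 and Sprr2d were 11.8-fold and 20.2-fold lower. Sprr2d varied most among these on the W692A arrays (3.71, 2.60, 4.42 and 2.17).

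Some genes lay below the vector with AML1/ETO and less far below it with W692A. Cebpa, the factor of granulocyte commitment, read 2.34, 2.62 and 2.94 with AML1/ETO, 3.89, 4.13, 4.32 and 4.42 with W692A, and 5.11, 5.74 and 6.06 with GFP. All 3 groups separated, and W692A was 2.95-fold above AML1/ETO (limma adjusted p = 5.94e-05). Nfe2, a factor of platelet formation, read 4.58, 4.22 and 5.07 with AML1/ETO, 5.95, 5.64, 6.05 and 6.03 with W692A and 7.63, 7.60 and 7.69 with GFP. Cbfa2t3, the gene of the ETO family member ETO2, read 2.33, 2.07 and 2.21 with AML1/ETO, 3.52, 3.93, 3.80 and 3.91 with W692A and 4.97, 4.82 and 4.59 with GFP, 2.99-fold higher with W692A than with AML1/ETO (limma adjusted p = 9.04e-07). Bex6 read 1.19, 1.23 and 1.08 with AML1/ETO, all below the bound, 3.72, 3.45, 3.31 and 3.85 with W692A, and 6.21, 6.72 and 6.01 with GFP (at least 2.91-fold). Ffar2, a fatty acid receptor, was 3.86-fold higher, Cp, ceruloplasmin, at least 4.64-fold, Gja1, a gap junction protein, 3.12-fold and Selplg, the selectin ligand, 2.72-fold, all below GFP.

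**Figure D5:**
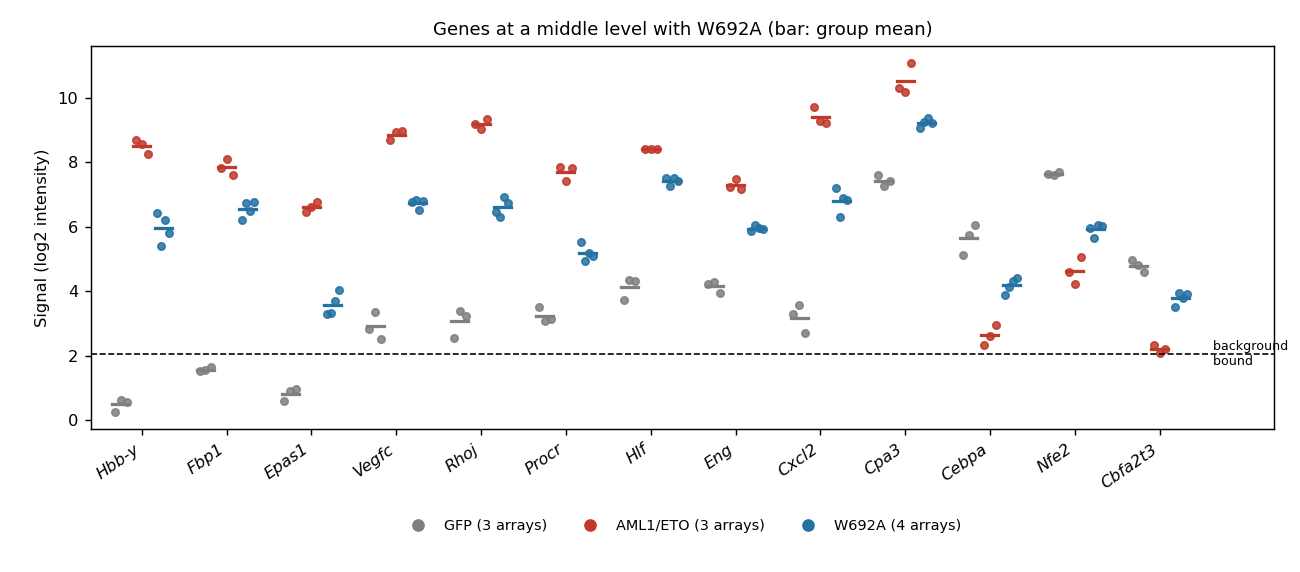
Log2 signal of 13 genes on each array, with GFP in grey (3 arrays), AML1/ETO in red (3) and W692A in blue (4); bars are group means and the dashed line is the background bound of 2.04. The blue points lie between the red and the grey ones for each gene, below AML1/ETO from Hbb-y to Cpa3 and above it for Cebpa, Nfe2 and Cbfa2t3.

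A further set rose above both other groups with W692A. Slc40a1 (ferroportin), the iron exporter, read 5.33, 5.05, 5.37 and 4.92 with W692A against 3.02, 3.19 and 3.34 with AML1/ETO and 3.28, 3.63 and 3.43 with GFP. It was 3.95-fold higher than with AML1/ETO (limma adjusted p = 1.54e-07), and AML1/ETO and GFP differed by -0.26 (limma adjusted p = 0.239). Il6ra, the interleukin 6 receptor, was at least 3.16-fold and Lmna, the nuclear lamin A/C, 3.27-fold higher than with AML1/ETO, and both stood above GFP (0.84 and 0.72) where AML1/ETO stood below it (-0.87 and -0.99). Csf1r, the receptor of macrophage colony-stimulating factor, separated all 3 groups: 7.33, 7.14 and 7.41 with GFP, 7.69, 7.78 and 7.73 with AML1/ETO, and 8.33, 8.30, 8.44 and 8.62 with W692A (1.61-fold over AML1/ETO). Klrd1, a natural killer receptor, was at least 2.19-fold higher, and Col4a1 and Col4a2, chains of basement membrane collagen, 2.17-fold and 2.50-fold higher. Tgfbi, a matrix protein induced by TGF-beta, was at least 2.27-fold above AML1/ETO and at the vector level (0.12, limma adjusted p = 0.721).

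Blood transcription factors as a list were mixed, with 10 of 40 lower, 7 higher and 23 that did not pass. Gfi1, a repressor of myeloid genes, read 5.47, 5.65 and 6.06 with AML1/ETO, 3.28, 3.87, 3.05 and 3.99 with W692A, and 3.15 to 3.46 with GFP (4.53-fold lower). Runx3 was 1.92-fold higher and Cebpb, an emergency granulopoiesis factor, was 0.84 higher on the log2 scale, while Ikzf1 (Ikaros) passed at 1.28-fold higher within a narrow interval, a call lost without any 1 AML1/ETO replicate or W692A replicate 1 or 2. Of 37 genes known as targets of the fusion or of RUNX1, 8 were lower, 5 higher and 24 did not pass, and 6 of the 27 above the bound had narrow intervals. Among them, Rasgrp1, a Ras activator, was 5.97-fold lower with W692A, though none of its 3 other probe sets passed, and Ubash3b, a phosphatase of receptor signalling, was 1.96-fold higher.

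Granule and mature lineage markers differed in part, which bears on the mix of sorted cells. Of 29 mast cell, basophil and eosinophil genes 14 were lower with W692A and 0 higher. The mean signal over this list was 3.88, 3.92 and 4.45 with AML1/ETO, 3.39 to 3.49 with W692A and 3.42 to 3.65 with GFP, with AML1/ETO replicate 3 the highest. Cpa3, the mast cell carboxypeptidase, read 10.32, 10.17 and 11.08 with AML1/ETO and 9.06 to 9.38 with W692A (2.46-fold lower), Hdc, the histamine-forming enzyme, was 4.31-fold and Cd200r3 3.98-fold lower, and Il4 3.95-fold. The mast cell protease genes Cma1, Tpsb2, Tpsab1 and Mcpt4 lay below the bound in every group mean, and Epx and Prg3 did not follow the list. The part of cell mix in these differences was not tested.

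Of 25 neutrophil and granule genes 4 were higher, 4 lower and 17 did not pass, with list means of 4.37, 4.30 and 4.78 with AML1/ETO and 4.29 to 4.53 with W692A. Lcn2, a siderophore-binding granule protein, was 5.47-fold and Lyz2 (lysozyme) 2.54-fold lower, and Itgb2, the beta 2 integrin, 2.15-fold higher. Ngp did not pass (1.02, limma adjusted p = 0.258), and AML1/ETO replicate 3 read 5.88 beside 3.15 and 2.60. Without that array it passed as higher, with a difference of 2.02. Of 31 monocyte, macrophage and dendritic genes 8 were lower and 3 higher, with list means of 4.01 to 4.21 and 3.81 to 3.97. Fcgr3 was 4.18-fold and the endotoxin receptor parts Tlr4 and Cd14 were 3.38-fold and 2.66-fold lower. The 3 that were higher were Csf1r (1.61-fold), Irf8 (1.54-fold) and Lgals3 (1.53-fold). Among 31 stromal and endothelial genes 12 were lower and 3 higher, with list means of 2.56 to 2.69 and 2.07 to 2.19. Col1a2, a fibrillar collagen chain, read 4.83, 5.06 and 5.31 with AML1/ETO and stayed below the bound with W692A (at least 8.15-fold lower), and Sparc was 4.24-fold lower, whereas Vim (vimentin) had a narrow interval (-0.13, -0.40 to 0.14).

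In the megakaryocyte and platelet list 6 of 24 were higher and 4 lower (3 and 2 without AML1/ETO replicate 2). The integrin Itgb3 was 2.64-fold higher, though its 1 other probe set did not pass, and the platelet chemokines Ppbp and Pf4 were 6.59-fold and 2.55-fold lower. Erythroid genes gave 4 higher and 3 lower of 29. Tfrc, the transferrin receptor, was 2.09-fold higher. Hemgn, a nuclear protein of red cell precursors, was at least 1.63-fold higher, still at 2.43 to 3.14 with W692A against 7.27 to 7.78 with GFP. Those lower included Hbb-y (5.81-fold) and the bright gene Car2 (2.14-fold). Car2 read 10.49, 10.47 and 10.29 with AML1/ETO and 9.13 to 9.45 with W692A. In the lymphoid lists 3 of 19 B lymphoid genes were lower and 0 higher, and 2 of 27 T and NK genes were higher and 1 lower (all genes 11.1% lower and 9.61% higher). Only 6 of the 19 and 8 of the 27 had a mean above the bound. Most of their members lay below the background bound, as did the defining markers named above.

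Of 33 genes of the ETO family and its corepressor complexes 6 were lower (3 without AML1/ETO replicate 1), 2 higher and 25 did not pass. Narrow intervals were found for 18 of the 27 with a mean above the bound. Hdac3, the histone deacetylase of these complexes, differed by 0.01 (-0.34 to 0.35), Tbl1xr1, an exchange factor of the complex, by -0.05 (-0.30 to 0.21; 1 of its 5 other probe sets passed as lower) and Cbfa2t2, the third ETO family member, by -0.23 (-0.52 to 0.05). Kdm1a, a histone demethylase, was 1.56-fold lower and Prmt1, an arginine methyltransferase, 1.84-fold higher. Among 31 genes of Polycomb and DNA methylation, 10 were higher (5 without AML1/ETO replicate 2 or W692A replicate 1 or 4) and 6 lower, with the DNA methyltransferases Dnmt3a and Dnmt3b 1.92-fold and 1.69-fold higher and the methylcytosine oxidase Tet2 2.18-fold lower. In the Wnt and Notch list 6 of 40 were lower (3 without AML1/ETO replicate 3) and 2 higher, and Notch1 had a narrow interval (-0.24, -0.50 to 0.03) above GFP. In the cytokine signalling list 9 of 40 were lower and 5 higher, and 16 of the 33 above the bound had narrow intervals, among them Il2ra and Il1r1. Apoptosis genes gave 6 lower and 2 higher of 30, with narrow intervals for 12 of the 22 above the bound. Adhesion and integrin genes gave 13 lower and 6 higher of 33.

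The mouse genes of both fusion partners were measured. Runx1 read 6.86, 6.61 and 6.89 with AML1/ETO, 7.04, 7.09, 6.67 and 6.93 with W692A and 5.86, 5.90 and 5.81 with GFP, a narrow interval between the constructs (0.15, -0.12 to 0.41). Of its 5 other probe sets 1 was lower with W692A (-0.56, -0.83 to -0.29, limma adjusted p = 0.00652 over all probe sets). Runx1t1 read 3.13, 2.10 and 3.13 with AML1/ETO, 0.86, 0.53, 0.55 and 0.59 with W692A and 0.42 to 1.03 with GFP, at least 1.68-fold lower with W692A (limma adjusted p = 6.84e-06), and 2 of its 5 other probe sets passed in the same direction. Both constructs contain ETO sequence, yet Runx1t1 signal exceeded the bound with AML1/ETO alone. Which part of the transcript these probe sets read was not used here, so neither signal can be traced to the retrovirus or to the cell's own gene, and equal amounts of both constructs cannot be shown from these arrays. Irf7, Irf9, Ifnar1, Ifnar2, Eif2ak2, Ifi203, Ccl9, Prc1, Mki67, Ube2c, Erg, Myc, Tpsb2, Tpsab1 and Mcpt4 were named after their values were seen.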

How the data were processed

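RNA of sorted mouse marrow cells was hybridised to 10 expression arrays (GFP 3, AML1/ETO 3, W692A 4). The authors deposited 1 table of log2 values over 45101 probe sets, made with RMA per the submitters' processing notes. RMA makes all arrays share 1 distribution, which hides differences in total RNA. The base of the logarithm was settled from the highest value, 12.77, which as a natural logarithm would be 350219, beyond the scanner limit of 65535, and in base 2 is 6967.

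Of the probe sets, 34958 had 1 symbol, 932 had several and, beside 64 controls, 9160 were unlisted. Symbols of 34741 were updated by gene ID and 204 kept. Of several probe sets, which 9010 genes had, that with the highest mean over all 10 arrays was used, giving 18193 genes. Other probe sets are described for some genes only, so silence on them does not mean that they passed. limma 3.58.1 in R 4.3.3 (lmFit, eBayes) was fitted to all 3 groups, with Benjamini-Hochberg adjustment over all genes at 0.05. The number of arrays limits the precision. The fit was tested on simulated data.

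The genes and 38 lists were chosen with earlier results of these data known. Named genes were the 12 largest rises and 12 largest falls that passed without overlap, up to 4 per list in each direction, up to 2 per list with a narrow interval, the 8 highest and 8 lowest narrow-interval genes against GFP, the markers and the fusion's family. Alternatives covered the arrays fitted, dim genes, probe sets, scaling, variance prior, array weights, replicate block, a fold minimum and each array left out. The Gapdh and spike-in covariates were added after the data were seen.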

Additional observations from a re-analysis of the deposited data

Results flagged for a closer look

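Among 214 of the genes named, 22 had 1 W692A array whose gap to the nearest of the other 3 exceeded Dixon's 95% critical value. Chance flags about 1 in 20 groups. W692A replicate 1 was high for Runx1t1 (0.86, below the background bound), Cd34 (6.90), H2-D1 (5.93), Hspa9 (8.90), Hsp90b1 (8.66), Hoxa9 (7.50) and Car8 (3.63), and low for Mycn (10.63) and Gata2 (5.25). W692A replicate 2 was high for Ube2c (7.20), Rps6 (8.29) and Erg (6.97) and low for Ms4a1 (0.58, below the bound). W692A replicate 3 was high for Il2ra (4.17), Lmna (6.88) and Vim (8.41) and low for B2m (8.98), Tjp1 (5.56) and Vegfc (6.51). W692A replicate 4 was high for Ifngr2 (6.32), Fancd2 (3.60) and E2f6 (4.76).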

How the results depend on the processing

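The number of genes that differed was 3765 and lay between 3002 and 4162 under the alternatives that kept all arrays and set no fold minimum, and between 2943 and 3645 with 1 array left out. With at least a 1.5-fold difference required as well, 2317 genes passed (987 higher, 1330 lower), among them 19 mitochondrial ribosomal protein genes. The single mitosis gene that was lower, Pttg1, did not pass (0 members lower) with probe sets averaged per gene, with array medians subtracted, with the spike-in covariate, with the replicate block or at 1.5-fold, and leaving out 1 array gave 0 to 1. The counts of interferon effectors, interferon-inducible GTPases and DNA replication genes stayed within 1.5 times under each alternative. Among 154 of the named genes that passed, none reversed and at most 8 lost the call (without AML1/ETO replicate 2) under the alternatives other than the 1.5-fold minimum. For that minimum single genes were not counted. Same-numbered AML1/ETO and W692A arrays deviated from their group means with correlations of 0.457, 0.007 and -0.127, which do not all exceed 0.1, so the arrays were taken to share only a number. Replicate 1 also correlated between GFP and AML1/ETO (0.293) and GFP and W692A (0.264), and replicate 3 between GFP and W692A (0.339), and a shared source of replicate 1 was not tested. With the replicate block 3509 genes passed (1594 higher, 1915 lower). Arrays without a signal above the bound limit the folds to lower bounds, and 347 genes passed with both means at or below it. The cause of these shifts was not tested.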
